A study of Rattus norvegicus with 18 samples.

Results

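CpG methylation in rat testis was compared between 6 libraries labelled chronic sleep restriction (CSR) and 6 labelled control. The sites compared were the CpGs covered by at least 10 reads in all 12 libraries, with the reads of both strands of a CpG added together. Of 4579141 CpGs listed in at least 1 library, 650667 met this rule. A further 6710 of them were set aside because 1 or more libraries exceeded a cap near the top of their own coverage, and 53 on the mitochondrial chromosome were set aside, which left 643904 for the comparisons. The deepest-covered part of the genome was therefore compared, and CpGs outside it were not.

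In mammals, DNA methyltransferases add a methyl group to cytosine, mostly where a cytosine is followed by a guanine, a pair called a CpG. Dense clusters of CpGs near gene starts are usually free of methylation, while CpGs elsewhere, including transposable elements, are usually methylated. In the testis, methylation is erased and laid down again during germ cell development, and the mature pattern is kept through the stem cell and meiotic stages to sperm.

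All 12 libraries came from testis of Wistar rats aged 8 weeks, and the groups differ, per the labels, only in sleep restriction. They are 12 of the 18 samples of the series, and the comparison asks whether and where CpG methylation in the testis differed after sleep restriction. Methylation was measured by reduced representation bisulfite sequencing (RRBS). In this assay genomic DNA is cut with the enzyme MspI at CCGG, fragments of a chosen size are kept, and bisulfite turns unmethylated cytosines into bases that are read as T. A methylation level is the percent of reads that still show C. Whether every library stems from a different rat is not stated in the labels, and the p-values therefore cover the variation among these 12 samples, part of which may be technical. Whole testis holds germ cells at many stages together with somatic cells, and a shift in their proportions cannot be told apart from a change within cells. The direction of every difference rests on the labels. In the submitters' codes, the letter used for the control methylation libraries is the one used for CSR among the RNA samples, and no methylation value checks the labels.

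The libraries held 46257452 to 68940379 reads at CpG cytosines, and the median coverage of the kept CpGs was 29 to 42 reads. RRBS reads carry no molecular identifiers, so coverage bounds counting error only. Control libraries 3 and 5 stood apart in coverage, with 51.8% and 53.7% of their CpGs covered on both strands against 35.5% to 44.98% in the others. A separate set of 957 kept CpGs had all 12 libraries within 15 points of 0, 50 or 100% with no level held by more than 9 libraries, and is called genotype-like here for that pattern alone. CSR libraries 2 and 3 shared the same level at 97.8% of the 957, whereas the other 65 pairs of libraries shared it at 37.5% to 51.2%. Over 1000-bp tiles the median gap of that pair was 3.14 points, and the other pairs lay at 3.06 to 3.59, so tiles set no pair apart. Whether CSR 2 and 3 came from 1 rat is not stated in the labels and was not tested. They are counted as 2 of n = 6, as labelled. Added together as 1 library (n = 5 against 6), they left 0 chromosomes, windows, CpGs and tiles called, with the smallest adjusted p for a CpG at 0.0563 by the quasi-binomial model described with the CpGs.

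A difference in the average methylation of the testis was not detectable. Library means over the 643904 CpGs ran from 65.1 to 66.2% in CSR and from 64.7 to 66.0% in control, and the groups overlapped almost entirely. CSR averaged 65.5 ± 0.422% and control averaged 65.5 ± 0.504% (SD, n = 6 per group). The difference, CSR minus control, was 0.0564 percentage points (95% confidence bounds -0.541 and 0.654; exact permutation test, two-sided, over every assignment of libraries to groups, p = 0.827). The sign of so small a difference was not stable. It turned negative without CSR 4 (-0.0769), without control 3 (-0.0295) or without control 5 (-0.0952), and stood at -0.241 without control 3 and 5 together (exact permutation p = 0.314). With CSR 2 and 3 added together it was 0.0202 (exact permutation p = 0.935). With each CpG weighted by its reads, control 3 and control 5 had the lowest means, 63.8% and 60.9%, against 66.8 to 69.9% in the other 10 libraries. That weighting gave a difference of 1.64 points with an exact permutation p of 0.335.

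Split by mean level, the class of nearly fully methylated CpGs was the one in which the groups separated most. At the 314711 CpGs with a mean of 90% or more, the CSR libraries lay between 95.6 and 95.8%, and the control libraries stood at 95.7, 95.6, 95.2, 95.4, 95.02 and 95.6% in the order of their numbers. Control 1 lay inside the CSR range, and the other 5 control libraries lay below every CSR library, control 2 and 6 by the least. The difference was 0.282 points (95.7 ± 0.0637% against 95.4 ± 0.262%, SD, n = 6 each), with an exact permutation p of 0.0130 and 0.0519 after adjustment over 4 level classes. Without control 3 and 5 it was 0.130 points with an adjusted exact permutation p of 0.171. Leaving out control 1 or control 2 took the adjusted p to 0.00866 and 0.0346. With CSR 2 and 3 added together the difference was again 0.282 points, with an adjusted exact permutation p of 0.147.

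The 81808 CpGs with a mean of 10 to 50% lay the other way, averaging 25.5 ± 1.49% in the CSR and 26.2 ± 1.79% in the control libraries (SD, n = 6; difference -0.772 points, exact permutation p = 0.431). CpGs under 10% averaged 2.03 ± 0.714% and 2.03 ± 0.530%, and those of 50 to 90% averaged 79.7 ± 0.573% and 79.7 ± 0.778%. In the class under 10% the highest libraries were CSR 4 at 3.31% and control 6 at 2.94%. These 2 libraries also had the highest share of mitochondrial CpG reads showing C, 1.66% and 1.23% against 0.421% to 0.979% in the others. The part of this in the class means was not tested.

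**Figure D1:**
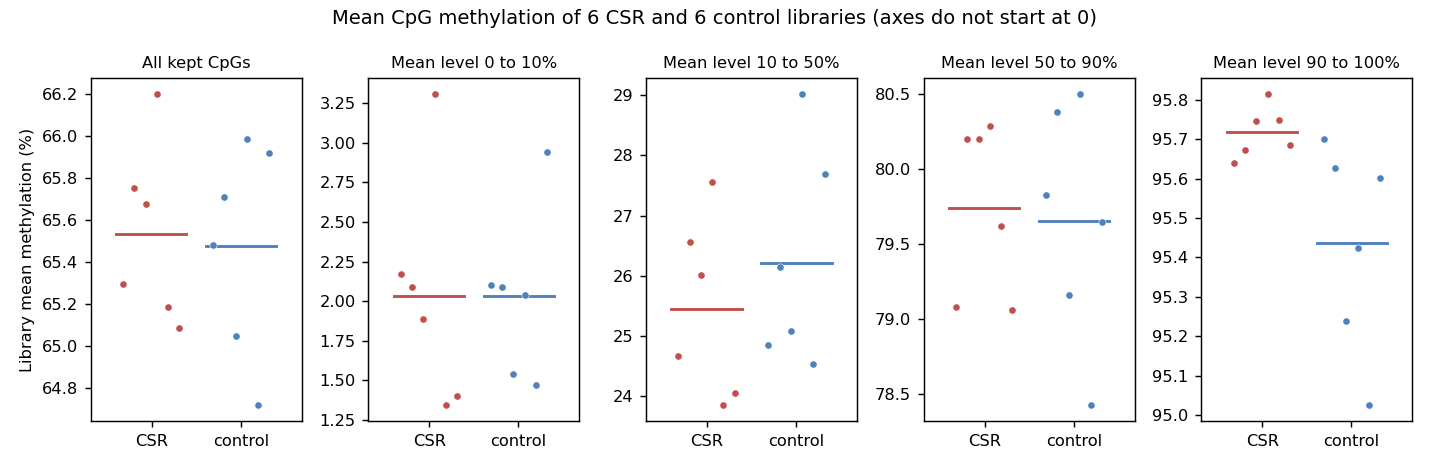
Mean CpG methylation (percent) of each library, for all kept CpGs and for 4 classes by mean level, with 6 CSR and 6 control points per panel and bars at the group means; the axes do not start at 0. The groups overlap in every panel, and in the class of 90 to 100% the CSR points sit between 95.6 and 95.8% while the control points reach down to 95.02%.

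No chromosome passed the test. The exact permutation test called 0 of 21 chromosomes (0%), with the smallest adjusted p at 0.957 and with 0 chromosomes at an unadjusted p under 0.05. Differences ran from -0.0860 points on chromosome 17 to 0.194 on chromosome X, and 18 of the 21 were positive. Because the same 12 libraries enter each chromosome, these signs are not independent. Without CSR 4 the signs became 2 positive and 19 negative, and without control 3 and 5 all 21 were negative. Without control 4, or without CSR 5, all 21 were positive. With CSR 2 and 3 added together, 15 were positive and 6 negative.

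Chromosome X, carried once in males, had the largest positive difference. Its 4065 CpGs averaged 70.97 ± 0.254% in the CSR and 70.8 ± 0.683% in the control libraries (SD, n = 6; exact permutation p = 0.628). Control 5 was the lowest library there at 69.5%, and the other 11 lay between 70.5 and 71.4%. Chromosome 19 (0.128 points) and chromosome 2 (0.113) followed. The 3 negative differences were on chromosome 17 (-0.0860), chromosome 12 (-0.0506) and chromosome 20 (-0.0466). Set against each library's own mean over all CpGs, chromosome 17 had a relative difference of -0.142 points, whose exact permutation p of 0.0476 became 0.967 after adjustment over chromosomes.

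**Figure D2:**
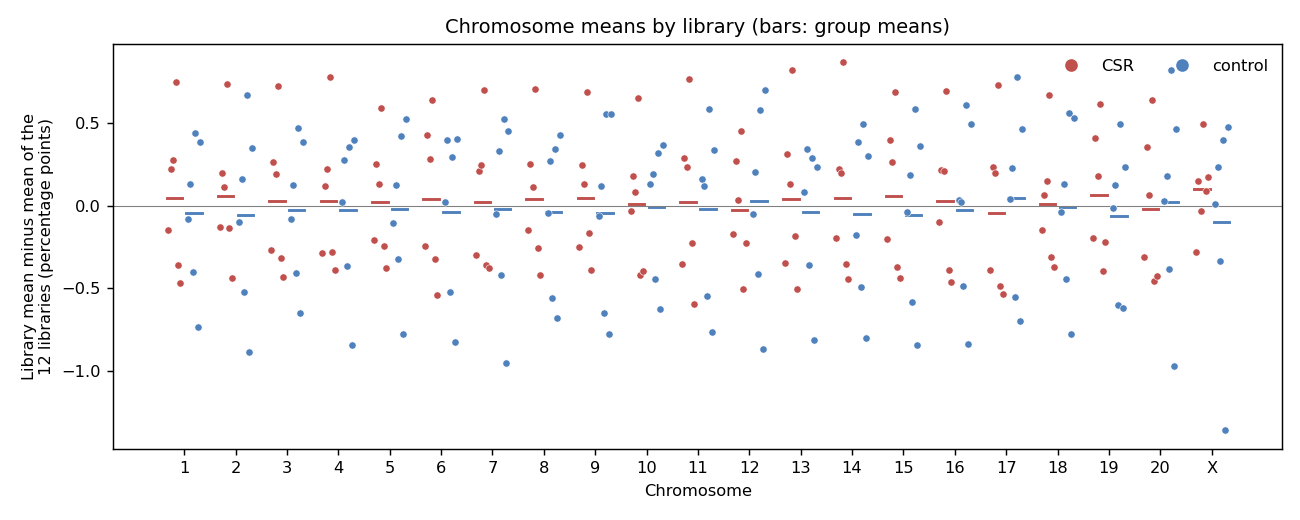
Library mean of each chromosome minus the mean of the 12 libraries there, in percentage points, for chromosomes 1 to 20 and X, with CSR and control libraries as points and group means as bars. The libraries keep much the same order on chromosomes 1 to 20. On X, CSR 6 and CSR 5, the lowest CSR libraries over all kept CpGs, lie above CSR 3 and CSR 1. The group means differ by 0.194 points at most, on chromosome X.

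On the scale of 1 Mb, no region passed the test either. Among 2722 windows with at least 20 kept CpGs, limma called 0 (0%), with the smallest adjusted p at 0.995, and 100 (3.67%) had an unadjusted p under 0.05. Of those 100, 67 were higher (2.46% of all windows) and 33 lower (1.21%) in CSR. This split moved both ways when libraries were left out. It turned to 38 higher of 138 (27.5%) without control 3 and 5. It was 48 of 113 (42.5%) without control 5 and 52 of 110 (47.3%) without CSR 4. Without control 4 it rose to 94 of 118 (79.7%). Without control 3 and 5 limma still called 0 windows, with the smallest adjusted p at 0.0715. The groups did not overlap in 2 windows (0.0735%), both higher in CSR and both on chromosome 20, named here after their values were seen. They span 11000001 to 12000000 (rn6; 0.892 points over 660 CpGs) and 20000001 to 21000000 (1.28 points over 672 CpGs).

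The window with the smallest p lay on chromosome 13, from 3000001 to 4000000, with 86 CpGs. The CSR libraries ran from 86.0 to 87.4% around a median of 86.8%, and the control libraries from 81.9 to 86.6% around a median of 83.0%. Control 3 was the only control library inside the CSR range. The difference was 3.22 points with a standard error of 0.725, and limma gave an adjusted p of 0.995. Without control 3 it was the only window called, with an adjusted p of 0.0251 by limma. The other windows named as higher were on chromosome X from 126000001 (3.18 points, 28 CpGs), on chromosome 2 from 265000001 (2.28, 26 CpGs) and on chromosome 6 from 120000001 (2.62, 22 CpGs).

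The 4 windows named as lower held more CpGs. They were on chromosome 16 from 68000001 (-2.66 points, 180 CpGs), on chromosome 4 from 101000001 (-1.65, 94 CpGs) and from 174000001 (-1.84, 311 CpGs), and at the start of chromosome 20 (-2.58, 112 CpGs). In the chromosome 16 window the CSR libraries ran from 54.4 to 56.8% and the control libraries from 56.0 to 59.6%, so the groups overlapped at control 1 only. Weighting CpGs by their reads turned the windows at the start of chromosome 20 (2.70 points) and at 101000001 of chromosome 4 (0.737 points) positive. A coverage minimum of 5 reads turned the chromosome 6 window negative (-0.259 points).

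Among single CpGs, 1 passed the test and it was higher in CSR. The quasi-binomial model, which weighs methylated against unmethylated reads and lets libraries vary beyond counting error, was fitted to 625118 CpGs. The remaining 18786 showed no variation over the 12 libraries. It called 1 CpG (0.00016%), where a call needed a difference of 10 points or more besides an adjusted p under 0.05, and 0 CpGs (0%) lower in CSR. An unadjusted p under 0.05 was found at 45848 CpGs (7.33%), 25567 higher (4.09%) and 20281 lower (3.24%). The groups did not overlap at 1012 CpGs (0.162%), 584 higher (0.0934%) and 428 lower (0.0685%) in CSR. The median size of the difference at a CpG was 2.26 points, against a median SD between libraries of 5.39 points in CSR and 5.30 in control.

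The called CpG lies on chromosome 6 at 2754555 to 2754556 (rn6). Every CSR library was highly methylated there, at 95.9, 100, 97.0, 94.2, 96.5 and 96.7%. The control libraries were at 40.8, 43.0, 94.1, 0, 26.5 and 47.9%. The groups did not overlap, although control 3 came close to the lowest CSR library and control 4 was unmethylated. This CpG does not count as genotype-like, but only control 5, at 26.5%, lay outside the limits of that rule. Every other library lay within them. Whether the DNA sequence differed among the libraries at this CpG was not tested. The difference was 54.7 points (96.7 ± 1.88% against 42.1 ± 30.9%, SD, n = 6 each) with an adjusted p of 0.0216 from the quasi-binomial model, on 34 to 142 reads per library. Both strands showed it, with group means of 99.1% and 47.1% on the forward strand and 96.4% and 39.8% on the reverse strand. The 4 other tested CpGs within 200 bp had a median difference of -0.111 points, so the difference did not extend to its near neighbours. Farther away, from 2 to 3 Mb of chromosome 6, 6 of 289 tested CpGs differed by at least 30 points, 5 of them higher in CSR. Averaged over those 6, CSR libraries ran from 60.3 to 82.2%. The control libraries stood at 44.3, 50.7, 77.1, 16.7, 23.0 and 55.0%, with control 3 highest and control 4 lowest, as at the called CpG.

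The call held in 13 of 23 alternative settings, with a difference of 46.3 to 65.1 points throughout. Adjusted p ran from 0.000578 (quasi-binomial model) to 0.441 (limma on log ratios). The 13 include the setting without a minimum difference, which could not change this call. They also include the quasi-binomial fit with the replicate number as a block, which called 1811 CpGs. The quasi-binomial model put its adjusted p above 0.05 without CSR 2 (0.0728), CSR 3 (0.0805), CSR 5 (0.103), control 5 (0.0550) or control 6 (0.0511). Adding CSR 2 and 3 together gave 0.0563, and leaving out control 3 and 5 gave 0.00183. A coverage minimum of 5 reads gave 0.0581, and each CpG's own dispersion gave 0.203. On log ratios of the reads limma gave 0.441 and called no CpG, with 33270 at an unadjusted p under 0.05. With the replicate number as a block, limma on log ratios called 3 CpGs, and this CpG was not among them.

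The 5 other CpGs named as higher in CSR did not pass, each at an adjusted p of 0.199 by the quasi-binomial model. On chromosome 1 at 280839702 all 6 CSR libraries were at 100% and the control libraries ran from 81.3 to 95.7% with a median of 84.6%. Those groups did not overlap. Also on chromosome 1, at 268058193, control libraries ran from 0 to 3.17% and CSR libraries from 4.08 to 69.7% with a median of 40.9%, again without overlap but with a wide spread in CSR. On chromosome 4 at 168983870 all control libraries were at 0%, CSR 1 and CSR 4 were at 2.50% and 0%, and the other CSR libraries at 46.7 to 78.5%.

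Chromosome 20 held the remaining pair of CpGs named as higher, 20753798 and 21410330. At 20753798, which is genotype-like, CSR libraries ran from 97.3 to 100% and control libraries from 0 to 96.5% with a median of 44.4%. At 21410330 CSR libraries ran from 83.1 to 100% and control libraries from 0 to 88.2% with a median of 38.2%. In both CpGs, as in the called CpG of chromosome 6, control 4 was at 0%. Control 2 was the highest control library at both chromosome 20 sites, and control 3 at the chromosome 6 site.

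None of the 6 CpGs named as lower in CSR passed, with adjusted p of 0.199 to 0.360 by the quasi-binomial model. On chromosome 5 at 127276876 the CSR libraries ran from 11.1 to 37.8% with a median of 25.5%, and the control libraries from 43.0 to 58.7% with a median of 55.2%. The groups did not overlap, the difference was -27.5 points, and both CpGs within 200 bp also had lower means in CSR. On chromosome 4 at 182794682 CSR libraries ran from 72.2 to 90% and control libraries from 94.4 to 100%. That difference of -16.5 points was unequal between strands, with group means of 90.3% and 98.1% on the forward and 65.2% and 98.6% on the reverse strand.

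On chromosome 8 at 110080527, a genotype-like CpG, CSR libraries ran from 0 to 6.67% and control libraries stood at 53.8, 0, 47.3, 94.03, 63.6 and 44.8%. All control libraries but control 2 thus lay above every CSR library. On chromosome 11 at 27709965 all CSR libraries and control 1, 3 and 5 were at 0%, while control 2, 4 and 6 were at 67.3, 64.02 and 63.2%. At that CpG the reverse strand was listed in those 3 control libraries and in 0 CSR libraries. At 70280959 of chromosome 11 and 80834554 of chromosome 4 all control libraries were at 100%, and CSR means were 91.9% and 90.3%.

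**Figure D3:**
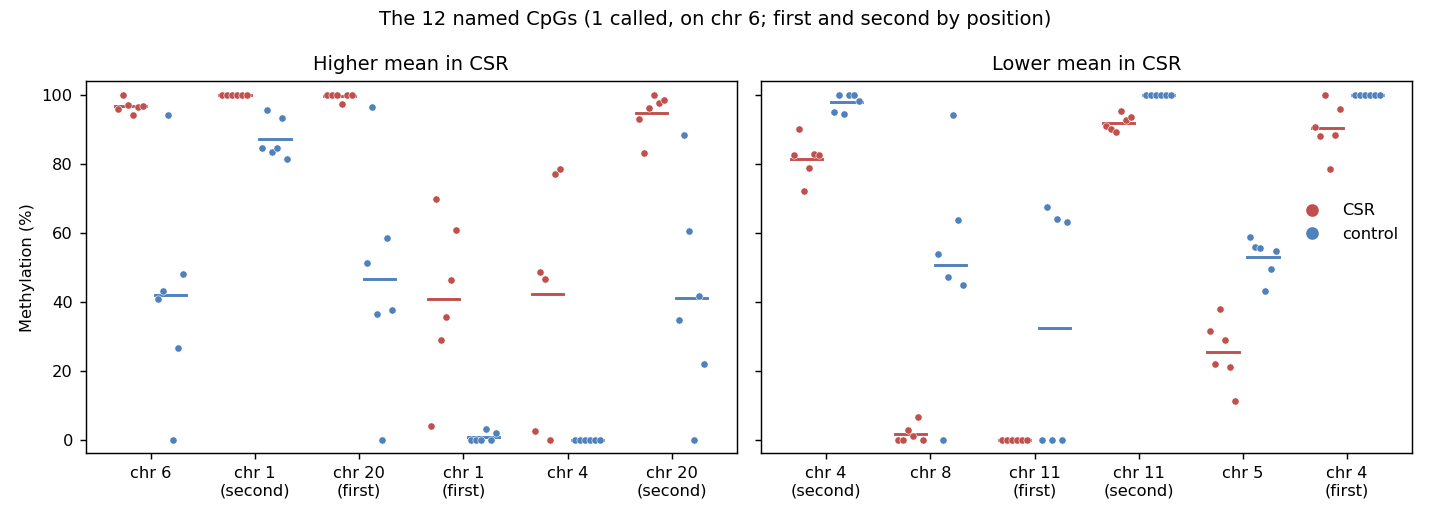
Methylation (percent) of each of the 12 named CpGs in 6 CSR and 6 control libraries, with bars at the group means; 1 of them, on chromosome 6, passed the test. Control libraries spread from 0 to 94.1% at the chromosome 6 CpG while CSR libraries stay above 94%, and the CpG of chromosome 5 separates the groups with a small spread in each.

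Large differences at single CpGs came in both directions in nearly equal number and went with a large spread among libraries. A difference of at least 30 points was found at 545 tested CpGs, 267 higher and 278 lower in CSR, of which 454 had an unadjusted p under 0.05. The groups did not overlap at 22 of them (4.04%), against 0.162% of all tested CpGs. Choosing CpGs by the size of the difference favours such groups, so this share only describes the 545. The median SD between libraries at these CpGs was 27.0 points in CSR and 25.9 in control. Levels near 0, 50 or 100% in all 12 libraries were seen at 92 of the 545 (16.9%), against 0.994% of tested CpGs with a mean of 10 to 90%. Choosing by size also favours CpGs whose libraries lie far apart, so this share too only describes the 545. Genotype-like CpGs numbered 90 of the 545.

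The 545 CpGs were spread over 293 of 2941 windows of 1 Mb, and 172 of those windows held 1 each. Another 16 windows held 5 or more, and in several of them every such CpG lay in the same direction. From 20 to 21 Mb of chromosome 20, 10 of 10 were higher in CSR. Averaged over those 10, CSR libraries ran from 84.8 to 95.5%, and control libraries stood at 51.1, 79.9, 54.3, 18.5, 47.9 and 35.0%. From 21 to 22 Mb, 6 of 6 were higher, with CSR libraries at 91.2 to 96.0% and control libraries at 42.9, 93.7, 44.6, 0, 46.97 and 43.04%. Control 2 was thus the highest and control 4 the lowest control library across both windows, over CpGs from 20512003 to 20941354 in the first window and from 21034655 to 21678136 in the next.

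Other windows repeated this kind of pattern with other libraries. On chromosome 1 from 34 to 35 Mb, 7 of 116 tested CpGs differed by at least 30 points, all higher in CSR. CSR 2 and 3 averaged 90.1% and 95.8% at them, the other CSR libraries 56.1 to 60.1%, control 3 and 4 58.7% and 59.8%, and the other control libraries 4.93 to 13.6%. On chromosome 9 from 110 to 111 Mb, 6 of 6 were lower, with CSR 1, 2, 3 and 6 at 0 to 2.08%, CSR 4 and 5 at 70.4% and 60.5%, and control libraries at 1.24 to 96.2%. On chromosome 16 from 71 to 72 Mb, 8 of 8 were higher, and on chromosome 19 from 49 to 50 Mb, 5 of 5 were lower.

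At the scale of 1000-bp tiles no region passed the test. Reads were summed over the kept CpGs of each tile that held at least 3, and the quasi-binomial model called 0 of 93249 tiles (0%), where a call needed 5 points or more besides an adjusted p under 0.05. The smallest adjusted p was 0.377. An unadjusted p under 0.05 was found in 5750 tiles (6.17%), 3162 higher (3.39%) and 2588 lower (2.78%) in CSR. On log ratios limma also called 0 tiles, with 4858 at an unadjusted p under 0.05. The groups did not overlap in 195 tiles (0.209%), 114 of them higher (0.122%) and 81 lower (0.0869%).

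In most of the tiles with the smallest p, neighbouring CpGs shared the direction of the tile. The tiles were chosen by the p of the reads summed over these CpGs, which can share reads. Counts of CpGs in the direction of a named tile therefore only describe it. The named tile with the largest difference was on chromosome 14, 11026001 to 11027000, where 9 of 9 CpGs had lower means in CSR. The CSR libraries ran from 2.80 to 28.6% with a median of 20.6%, and the control libraries from 34.8 to 48.0% with a median of 42.4%. The groups did not overlap, and the difference was -23.8 points (18.4 ± 9.61% against 42.2 ± 5.35%, SD, n = 6 each; adjusted p = 0.763, quasi-binomial model). Without its most different CpG the tile still differed by -22.9 points. That CpG was picked from the same values and its neighbours can share its reads, so this is a description.

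The other tiles named as lower had smaller differences. On chromosome 8, 128885001 to 128886000, CSR libraries ran from 3.61 to 20.5% and control libraries from 27.3 to 39.4%, a difference of -20.4 points over 5 of 5 CpGs. On chromosome 16, 36094001 to 36095000, CSR libraries ran from 5.28 to 13.4% and control libraries from 19.6 to 26.1%, a difference of -13.8 points over 6 of 6 CpGs. Neither pair of groups overlapped. On chromosome 17, 28077001 to 28078000, which had the smallest p of all tiles (adjusted p = 0.377, quasi-binomial model), all 6 CSR libraries were at 0% and the control libraries at 0, 12.2, 8.87, 6.14, 6.75 and 12.2%, so that the groups overlapped at control 1. Tiles on chromosome 12 from 45908001 (-13.1 points) and chromosome 7 from 26645001 (-8.80) completed the list.

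Among the 6 tiles named as higher, 4 differed along their length and 2 rested on a single CpG. On chromosome 10, 48317001 to 48318000, CSR libraries ran from 88.7 to 100% and control libraries from 73.4 to 84.3%, without overlap, a difference of 13.8 points over 6 of 6 CpGs. On chromosome 19, 15047001 to 15048000, 10 of 10 CpGs had higher means in CSR, with libraries at 83.8 to 90.7% against 69.4 to 84.2% in control, which overlapped at 1 library of each group. Tiles on chromosome 5 from 107644001 (13.4 points) and chromosome 17 from 33333001 (8.62) did not overlap between groups. The tiles that hold the named CpGs of chromosome 20 (from 20753001, 17.3 points) and chromosome 6 (from 2754001, 10.004 points) dropped to 1.40 and -0.197 points without that CpG. The 12 named tiles kept their direction in every alternative in which they were tested, and none passed in any.

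**Figure D4:**
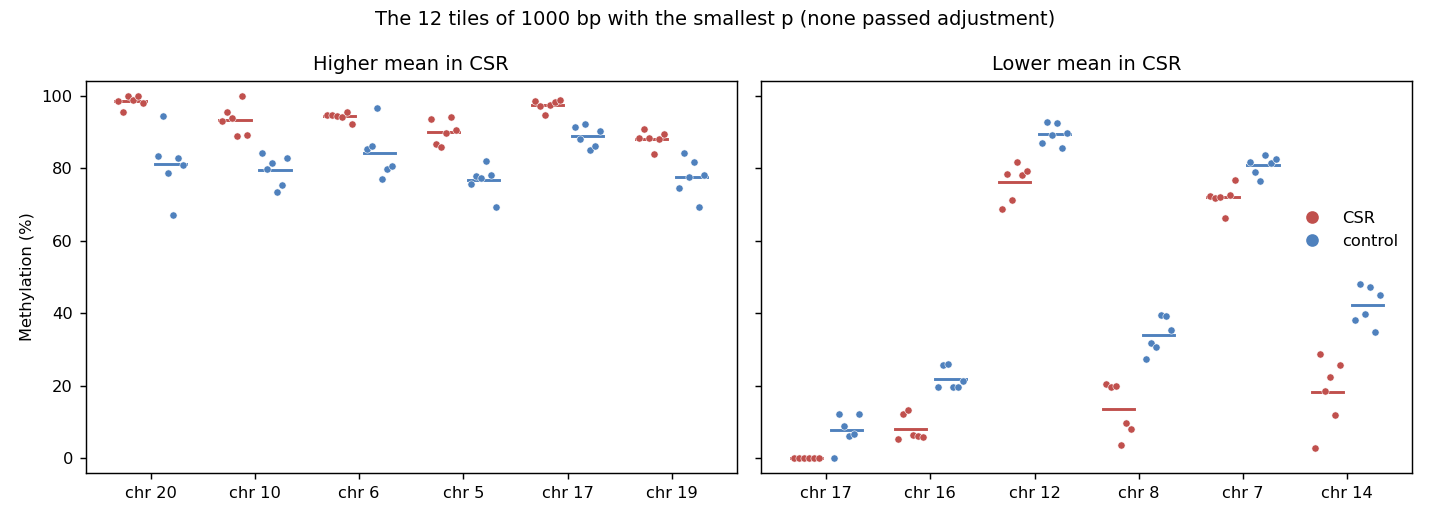
Methylation (percent) of each of the 12 named 1000-bp tiles in 6 CSR and 6 control libraries, with bars at the group means; none passed adjustment. The tiles named as higher sit above 65% in both groups, while 4 of the 6 named as lower sit below 50%, and the control libraries of the chromosome 14 tile all lie above its CSR libraries.

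By size alone, 10533 tiles differed by at least 5 points, 1843 by at least 10 and 78 by at least 20. Of the 78, 26 were higher and 52 lower in CSR, and 5 held a genotype-like CpG. The groups did not overlap in 5 of the 78, against 0.209% of all tiles. Choosing tiles by the size of the difference favours such groups, so this count is a description. The largest difference was on chromosome 1 from 34476001, in the window with CSR 2 and 3 at the top. There CSR libraries ran from 55.6 to 98.8% and control libraries from 2.56 to 72.8%, a difference of 46.96 points with overlap. The largest without overlap was on chromosome 20 from 20941001, 5 CpGs at 79.1 to 99.2% in CSR and 37.0 to 73.2% in control, a difference of 37.9 points (adjusted p = 0.483, quasi-binomial model).

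The direction of differences varied with the level of the tile. Of all tested tiles 53.1% had the higher mean in CSR, and of the 5750 with an unadjusted p under 0.05, 55.0%. Among tiles of 90% or more the share was 56.4%, and 67.4% of the 2291 of them with an unadjusted p under 0.05. Tiles of 10 to 50% went the other way, with 45.2% higher and 34.2% of 972. Tiles under 10% and of 50 to 90% stood at 49.0% and 53.5% of those with an unadjusted p under 0.05. Of the single CpGs with an unadjusted p under 0.05, 61.0% were higher at 90% or more, 57.2% under 10%, 52.8% at 50 to 90% and 37.1% at 10 to 50%. Of all tested sites under 10%, 49.2% of CpGs and 49.2% of tiles were higher in CSR. The lean to higher levels in that class was thus seen among the CpGs with an unadjusted p under 0.05, and not among all its CpGs or its tiles.

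This balance rested on a few libraries. Of the 45848 CpGs with an unadjusted p under 0.05, 25567 (55.8%) were higher in CSR. That share was 49.8% without control 5, 51.1% without control 3 and 44.0% without both, which puts the majority on the lower side. Without CSR 6 the share of CpGs rose to 59.9%. For tiles the share went from 55.0% to 48.98% without control 5 and to 41.7% of 5774 without both. By chromosome the share of tiles with an unadjusted p under 0.05 ran from 4.67% on X to 7.19% on chromosome 11. The share of those that were higher ran from 33.3% of 27 tiles on X and 49.1% on chromosome 12 to 60.7% on chromosome 19 and 60.9% on chromosome 8.

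Differences at neighbouring CpGs were alike over about the length of an RRBS fragment. Pearson's r between the differences of the 2 CpGs of a pair, across pairs, was 0.516 at 2 to 10 bp (147813 pairs), 0.386 at 51 to 100 bp and 0.262 from there to 200 bp. It was 0.105 up to 500 bp, 0.0284 up to 1000 bp and 0.00842 up to 5000 bp. The share of pairs with the same sign fell from 66.5% to 50.2% over these distances. CpGs of a pair share libraries and often reads, and pairs are not independent. The deviation of a single library from its own group mean behaved alike, with r of 0.469 to 0.574 over the 12 libraries at 2 to 10 bp and 0.222 to 0.267 over 100 to 200 bp.

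**Figure D5:**
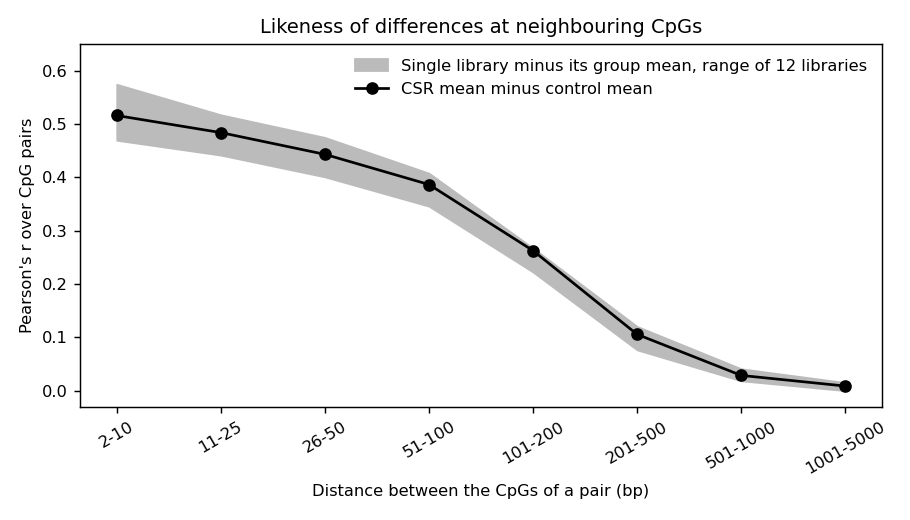
Pearson's r between the methylation differences of CpG pairs (vertical axis) against the distance of the pair in bp (horizontal axis), for CSR minus control (line) and for single libraries minus their group mean (band, range of 12 libraries). The line falls from 0.516 to 0.00842 and stays inside the band at all 8 distances.

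Runs of CpGs with the same direction were counted as at least 3 consecutive kept CpGs, at most 200 bp apart, each with an unadjusted p under 0.05. There were 1052 runs, 555 higher (52.8%) and 497 lower in CSR, and they held 4010 CpGs, 8.75% of all CpGs with an unadjusted p under 0.05. The longest had 14 CpGs, and 203 had 5 or more. At an unadjusted p under 0.01 there were 111 runs, and the split turned to 51 higher (45.9%) and 60 lower. Since the test chose the members, the values of runs are a description.

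The longest run named as higher lay on chromosome 11 from 88025869 to 88026000. Over its 11 CpGs CSR libraries ran from 18.2 to 53.4% and control libraries from 5.71 to 34.3%, a difference of 19.02 points with overlap. The other 3 runs named as higher, of 10 CpGs each, were near 0% in every control library and were highest in a few CSR libraries. On chromosome 6 from 95997557 CSR 4 stood at 30.6% and CSR 6 at 10.4%, and the other 4 CSR libraries at 0.303% or less. On chromosome 20 from 31313579 CSR 2 stood at 20.3% and CSR 3 at 6.39%, with the other CSR libraries at 0%. On chromosome 4 from 80367672 CSR 1, 2 and 4 stood at 10.1, 16.7 and 12.9%, and the other CSR libraries at 0.588% or less.

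The longest run named as lower was on chromosome 17 from 76814053 to 76814422, with CSR libraries at 16.4 to 40.4% and control libraries at 21.3 to 58.4%, a difference of -10.6 points over 14 CpGs. Runs on chromosome 9 from 38201910 (11 CpGs, -14.9 points) and chromosome 10 from 67250889 (9 CpGs, -15.01 points) also overlapped between groups. The run on chromosome 16 from 36093870 to 36094156 did not overlap, with CSR libraries at 4.81 to 14.5% and control libraries at 19.5 to 26.2%, a difference of -12.8 points over 9 CpGs. It reaches into the named tile of that chromosome.

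From 1 tile to the next and over 1-Mb windows, clustering was slight. Among 13250 pairs of adjacent tiles the differences had a Pearson's r of 0.157 and the same sign in 54.0%, where pairs share libraries. Adjacent tiles touch, so CpGs on either side of a border can lie on the same fragment. A tile with an unadjusted p under 0.05 was followed by another in 11.1% of cases, against 6.17% of all tiles, and 70 of the 93 such pairs had the same sign. In the 1586 windows of 1 Mb with at least 20 tiles, the median share of tiles with an unadjusted p under 0.05 was 5.71% and the highest 22.7%. There were 152 windows with none and 40 above 15%. The most such tiles lay on chromosome 12 from 47 to 48 Mb (17 of 145), chromosome 5 from 147 to 148 Mb (15 of 82), chromosome 20 from 20 to 21 Mb (15 of 98) and chromosome 14 from 82 to 83 Mb (14 of 70). In these 4 windows the tiles went in both directions.

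The spread between libraries was alike in the 2 groups. The median SD of a tile was 3.48 points in CSR and 3.44 in control, and control had the larger SD in 49.0% of tiles. For windows of 1 Mb the medians were 1.03 and 1.05 points. Spread was widest at intermediate level, with tile medians of 7.97 and 7.71 points at 10 to 50% against 2.63 and 2.64 points at 90% or more. Only 1 CpG with at least 10 reads in all 6 libraries of CSR was listed in no control library, and 1 the other way round. Fewer CpGs reached 10 reads in all 6 CSR libraries (814586) than in all 6 control libraries (935078).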

How the data were processed

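For each cytosine in a CpG the authors deposited a count of covering reads and, as a percent, how many showed C and how many T, per the file headers. Tools listed in the submitters' processing notes are Trim Galore, Bismark and SAMtools, with the build rn6 and with versions not given in the sources used here. No cytosine was listed under 5 reads. Multiplying count and percent returned whole methylated reads throughout, to the precision of the percent. The strands of a CpG were then added (reverse position minus 1).

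Library means were compared by two-sided exact permutation tests over all assignments of libraries to groups, whose smallest p is 0.00216. CpGs and 1000-bp tiles were tested with a quasi-binomial logistic model whose dispersion was moderated across sites by limma 3.58.1 (squeezeVar) in R 4.3.3, and 1-Mb windows with limma and a mean-variance trend on library means. All p-values were adjusted by Benjamini-Hochberg over every site tested, with a threshold of 0.05. Named sites were the called ones, filled up in each direction to 6 CpGs, 6 tiles and 4 windows by smallest p, at most 1 CpG or tile per 1-Mb window, the 4 runs with the most CpGs, and the 3 chromosomes with the largest differences. The sites, lists and rules were chosen with earlier results of these data known. Classes by mean level and the block on log ratios were added after seeing the data.

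On simulated data with the same coverage, 54% of 100 CpGs changed by 40 points and 3% of 100 changed by 20 points were called among 625118. The changed CpGs and tiles were taken from those of intermediate level, and every change was an increase in CSR. For CpGs and tiles, changes at other levels were not simulated. For 93249 tiles, 26% of 100 changed by 20 points and 1% of 100 changed by 10 points were called. Windows were not simulated from reads or coverage. Their library values were drawn as independent normal values around the mean of each window, with the SD of its control libraries. For 2722 windows, 86% of 100 changed by 4 points and 50% of 100 changed by 2 points were called. Among the unchanged sites of the same simulations, 2 of 624918 CpGs, 5 of 93049 tiles and 5 of 2522 windows were called. An unadjusted p under 0.05 was found at 6.90% of unchanged CpGs, 6.19% of unchanged tiles and 4.52% of unchanged windows. The data gave 7.33%, 6.17% and 3.67%.

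Same-numbered libraries of the 2 groups did not deviate together (r of -0.00851 to 0.0176 over tiles), so the numbers were not taken as pairs. No rn6 sequence or annotation was used here, so sites are given without genes or sequence, and the tissue label was not checked against markers. The RNA table was not used here.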

Additional observations from a re-analysis of the deposited data

Results flagged for a closer look

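Among 135 groups of 6 libraries examined, 5 had a highest or lowest library whose gap to its neighbour exceeded the 95% critical value of Dixon's test, and chance alone gives about 5%, or 6.75 groups. CSR 6 held 68940379 reads at CpG cytosines, while its group otherwise ranged from 46257452 to 54712419. Control 2 held 49647718 reads, and the rest of its group ranged from 59342162 to 64654061. At the genotype-like CpG of chromosome 20 at 20753798, CSR 4 stood at 97.3% and the other CSR libraries at 100%. In the run on chromosome 6 from 95997557, CSR 4 stood at 30.6% and the other CSR libraries at 0 to 10.4%. In the run on chromosome 20 from 31313579, CSR 2 stood at 20.3% and the other CSR libraries at 0 to 6.39%.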

How the results depend on the processing

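The mean difference of 0.0564 points kept its sign in 16 of 20 alternatives. It ran from -0.0952 to 0.159 with 1 library left out and was -0.241 without control 3 and 5. In 20 alternatives 0 chromosomes were called. Windows gave 0 calls in 23 of 24 alternatives, and 0 to 1 with 1 library left out. The windows at the start of chromosome 20 (2.70 points by read weighting), at 101000001 of chromosome 4 (0.737, the same) and at 120000001 of chromosome 6 (-0.259, coverage minimum of 5) changed sign. The number of CpGs called was 0 with a coverage minimum of 5, 2 with no coverage cap, 0 with CSR 2 and 3 summed, 8 without control 3 and 5, and 0 with limma on log ratios. With 1 library left out it was 0 to 16, the highest without control 2 (16), control 1 (6), control 3 (4) and CSR 1 (4). With each site's own dispersion 1 CpG was called, but another one, on chromosome 7 at 118401865 (10.4 points). Tiles gave 0 to 3 calls with 1 library left out. The 3 came without control 2 and lie on chromosome 20 from 20775001 (25.1 points), 21286001 (22.6) and 21409001 (17.9), each with an adjusted p of 0.0191 from the quasi-binomial model. The share of CpGs with an unadjusted p under 0.05 that were higher in CSR was 55.8%, 49.8 to 59.9% with 1 library left out, and 44.0% without control 3 and 5. Runs numbered 111 at an unadjusted p under 0.01 against 1052, and 997 to 1060 with other gaps. The difference in the class of 90% or more was 0.199 to 0.335 points with 1 library left out, with adjusted exact permutation p of 0.00866 to 0.199. The cause of these changes was not tested.

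With the replicate number as a block the quasi-binomial model called 1811 CpGs, 902 higher and 909 lower, and 3 tiles, and 45.1% of CpGs with an unadjusted p under 0.05 were higher. The fitted dispersion of the 1811 had a median of 0.473 against 1.71 over all CpGs, and 344 were under 0.1. A block fitted by limma on log ratios called 3 CpGs and 0 tiles, with 54.9% higher. In 0 of 6 cases did a library resemble best the library of the other group with its own number. A pairing that leaves no likeness in methylation would not show here, and the labels give none. At the depth and spread here, simulated increases of 20 points at 1 CpG or 10 points in 1 tile of intermediate level were seldom called. Changes at other levels were not simulated.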
